A study of Rattus norvegicus with 20 samples.

Results

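The effect of antibiotics on accumbens transcripts was estimated over 2 drinking backgrounds at once, from all 20 libraries of the series. Each library came from the nucleus accumbens (part of the ventral striatum and of the reward circuit) of a male wild-type Sprague-Dawley rat that had self-administered cocaine. The rats were from 7 to 9 weeks old, lived in cages of 2, and had free access to 1 of 4 drinking solutions. H2O rats (n = 5) had plain water and Abx rats (n = 4) had antibiotics. SCFA rats (n = 6) had short-chain fatty acids, and Abx_SCFA rats (n = 5) had antibiotics together with these acids. The 9 Abx and Abx_SCFA libraries were set against the 11 H2O and SCFA libraries, with fatty acid yes or no as a block, so that 1 antibiotic term covers both backgrounds. Abx minus H2O is called the water background and Abx_SCFA minus SCFA the fatty acid background. They share no library. The labels do not name the antibiotics, the fatty acids, their doses or the cage mates, so p-values measure the spread between these libraries, which may be partly technical. Rats that shared a cage may not be independent, and p-values that count each library as 1 unit may then be too small. All rats took cocaine, and no drug-naive group was compared.

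Oral antibiotics deplete gut bacteria, which ferment dietary fibre into acetate, propionate and butyrate. These short-chain fatty acids bind receptors of the Ffar family, enter cells through monocarboxylate transporters and, in the case of butyrate, inhibit histone deacetylases. Germ-free and antibiotic-treated rodents are known for altered microglia and for altered myelin gene expression in forebrain regions. In the accumbens the principal neurons are medium spiny neurons with D1 or D2 dopamine receptors, and oligodendrocytes, astrocytes and microglia make up most of the remaining cells.

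Library totals ran from 17525358 to 25731636 counts, and 3 counts, the limit that a count of 0 allows in 1 library, stood for 0.115 to 0.171 CPM, the count after scaling to a common library size. These floors cover counting error only, while the SE and SD values given below include the spread between libraries. Medium spiny neuron markers were abundant in every library: Ppp1r1b, the phosphatase inhibitor DARPP-32, ran from 959 to 2280 CPM. Genes of excitatory neurons of the cortex, a region dorsal and lateral to the accumbens, differed widely between libraries. Their score, the mean log2 CPM of 13 genes, ran from 0.963 to 3.903 in H2O, 2.611 to 4.627 in Abx, 2.836 to 5.928 in SCFA and 3.269 to 4.343 in Abx_SCFA, and it was highest in SCFA replicates 5 and 2 (5.928 and 5.139). H2O and Abx rats carry numbers that begin with 2 or 3 and all SCFA and Abx_SCFA rats numbers that begin with 4, so that the number series does not differ between the groups compared within the fatty acid background. The backgrounds have no series in common. Fatty acids and number series therefore cannot be told apart in the block, in the interaction or in any comparison of the backgrounds.

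No gene passed the test of the antibiotic term. Among 12846 genes tested, 0 had an adjusted p below 0.05 (0% called; smallest adjusted p = 0.624, edgeR's quasi-likelihood F test with Benjamini-Hochberg adjustment), and DESeq2 and limma-voom also called 0, with 1006 and 890 genes at an unadjusted p below 0.05. In the edgeR fit 926 genes stood below that unadjusted p, of which 691 (5.38% of all tested) were lower and 235 (1.83%) higher with antibiotics. The lower share of these 926 was 74.6%, but 56.6% of 911 genes with upper-quartile scaling and 67.6% of 916 with RLE scaling. The median log2 fold change of all genes tested was -0.01. The count depended on single libraries, with 576 genes without Abx replicate 3 and 1494 without SCFA replicate 5. Without SCFA replicates 2 and 5 it was 1526. The genes below are therefore described by their values, and none of them is called.

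The 2 backgrounds shared a direction in 6279 of 12846 genes (48.9%), of which 3582 were lower and 2697 higher with antibiotics in both. Another 3425 genes were higher in Abx than in H2O and lower in Abx_SCFA than in SCFA, and 3142 had the reverse order. Across genes, which are not independent replicates, the 2 differences had a Pearson correlation of -0.3 and a Spearman correlation of -0.09, given as a description. Of the 710 genes lower in the water background at an unadjusted p below 0.05, 507 (71.4%) were also lower in the fatty acid background, where 54.5% of all genes were lower. Of the 419 genes higher there, 138 (32.9%) were also higher in the fatty acid background. Read the other way, 246 of the 522 genes lower in the fatty acid background (47.1%) were also lower in the water background, where 52.3% of all genes were lower, and 158 of 349 higher genes (45.3%) were also higher. The share of genes with the same direction was 44.8% without Abx replicate 3 and 55.4% without SCFA replicate 5. In the plot of the antibiotic difference in both backgrounds, oligodendrocyte genes lay in the lower left quadrant, medium spiny neuron genes above the horizontal axis and cortical genes mostly in the lower right quadrant.

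**Figure D1:**
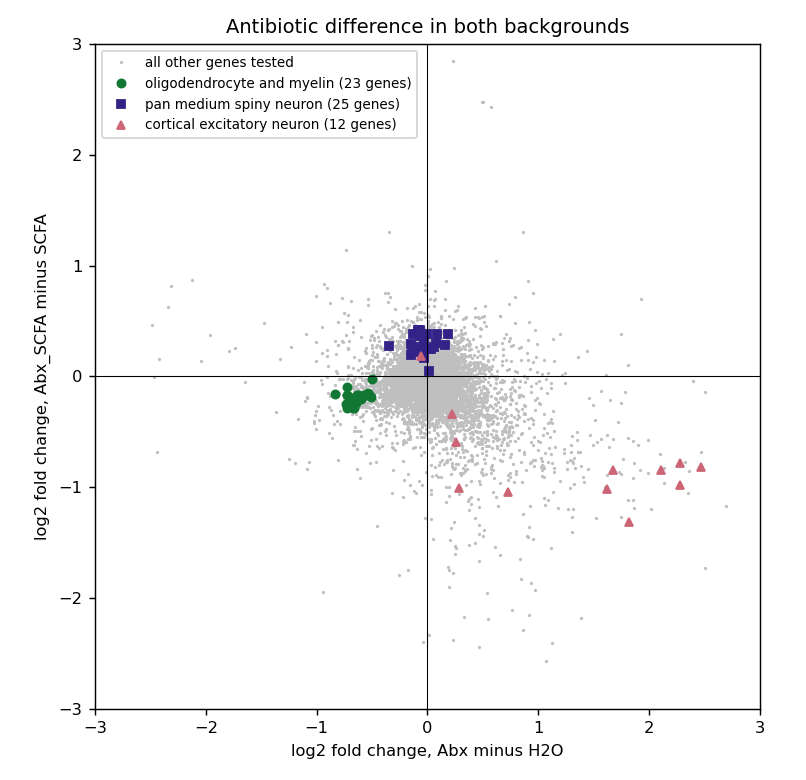
Log2 fold change of each gene in the water background (horizontal axis, Abx minus H2O) against that in the fatty acid background (vertical axis, Abx_SCFA minus SCFA). Of 12846 genes tested, 12839 are drawn and 7 lie outside the axes. All 23 oligodendrocyte and myelin genes (green) are negative on both axes, the 25 medium spiny neuron genes (blue) are all positive on the vertical axis, 8 of them on both, and the cortical genes (red) have opposite signs on the axes.

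At an unadjusted p below 0.05 in each background separately stood 36 genes with the same direction, 27 lower and 9 higher, and 20 with opposite directions. The 36 were 3.19% of such genes of the water background and 4.13% of those of the fatty acid background. Of the genes lower at that p in the water background 3.8% were so in the fatty acid background, where 4.06% of all genes were, and of the higher genes 2.15%, where 2.72% of all genes were. The overlap was no larger than the share over all genes, and its genes named below are examples, not a set that stands apart. No gene separated the groups without overlap in both backgrounds, neither lower (0 of 12846, 0%) nor higher (0 of 12846, 0%). The share of all genes that separated the groups in a single background is not given here. Many of the genes named below were chosen by small p, so their separation in a single background is no independent evidence.

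Qk had the smallest p of the antibiotic term. It encodes quaking, a KH-domain protein of glial cells that binds RNA and acts in the splicing and stability of myelin transcripts. H2O libraries stood at 92.6, 108, 110, 121 and 108 CPM and Abx libraries at 89.1, 80.5, 69.9 and 89.9 CPM. SCFA libraries ran from 70.7 over a median of 109 to 127 CPM, and Abx_SCFA libraries stood at 85.3, 82.7, 89.2, 83.3 and 72.3 CPM. The groups did not overlap in the water background. In the fatty acid background they overlapped only through SCFA replicate 5 (70.7 CPM), since the other 5 SCFA libraries had at least 97.3 CPM. The antibiotic term was -0.37 ± 0.085 (log2, SE), with -0.39 ± 0.13 in the water and -0.36 ± 0.12 in the fatty acid background. The adjusted p was 0.624 by edgeR. It was 0.0211 without SCFA replicate 5, where Qk was the 1 gene called, and 0.0544 without SCFA replicates 2 and 5. Limma-voom with library quality weights also called Qk alone (adjusted p = 0.049). Leaving out certain other libraries raised the adjusted p of Qk. The smallest edgeR adjusted p of any gene, Qk included, was 0.988 without Abx replicate 3. It was 0.9 without SCFA replicate 2 and 0.886 without H2O replicate 4. Within rat number series, Abx minus H2O was -0.24 log2 CPM in the series that begins with 2 and -0.51 in the one that begins with 3.

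**Figure D2:**
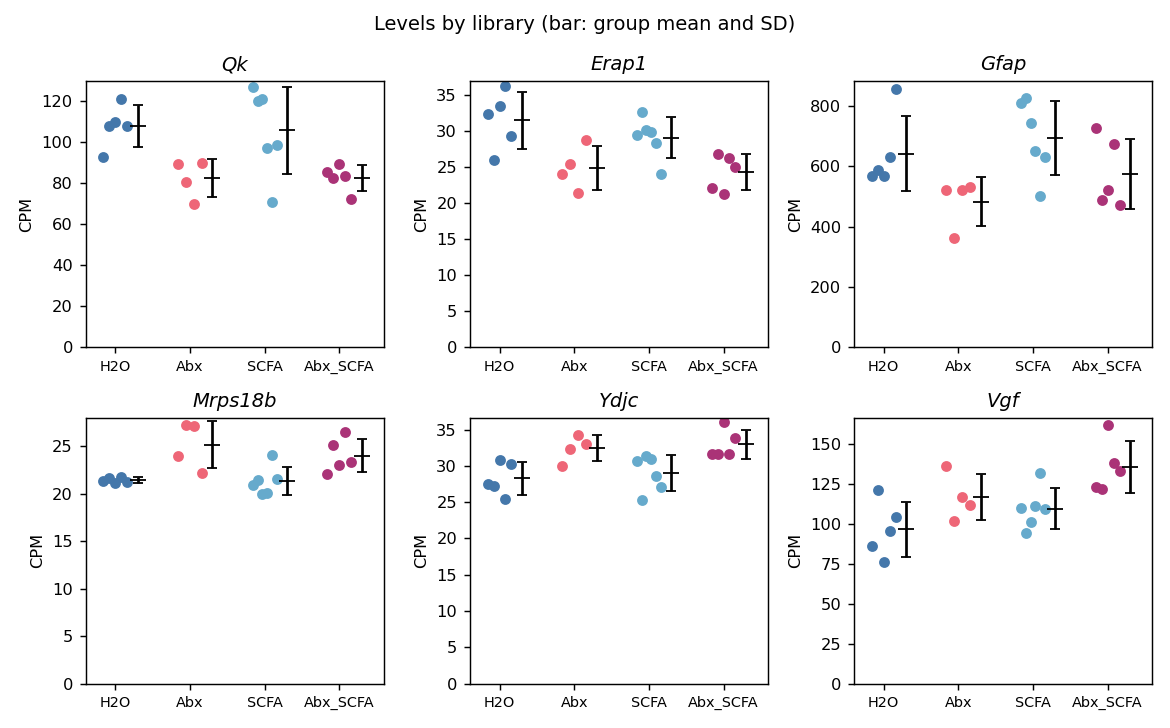
Level in CPM (vertical axes, from 0) of 6 genes in each library of the 4 groups (horizontal axes); dots are libraries, and the bar is the group mean with its SD. Qk means are 108 and 106 CPM in H2O and SCFA against 82.3 and 82.6 CPM in Abx and Abx_SCFA, and the low SCFA dot at 70.7 CPM is replicate 5.

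Genes of oligodendrocytes had lower mean levels with antibiotics in both backgrounds, and no single gene passed the test. Whether the list differed between the backgrounds was not tested. Oligodendrocytes wrap axons in myelin, and their list held genes of the myelin sheath, its lipids and its transcription factors. All 23 members tested had a negative antibiotic term, with a median of -0.38 against -0.01 for all genes. All 23 were negative in the water background (median -0.64) and in the fatty acid background (median -0.18). Of all genes, 3582 of 12846 were lower in both. None passed the adjusted threshold, and 8 of 23 stood at an unadjusted p below 0.05 in the lower direction, which 5.38% of all genes did. Fitted on the H2O and Abx libraries only, 23 of 23 stood there, and on the SCFA and Abx_SCFA libraries only, 0 of 23. In these fits 686 of 12599 and 442 of 12610 genes were lower at that p. The fatty acid median of -0.18 was smaller than the SD of the list's score within groups (0.45 log2 CPM). The list was known from earlier results to be low in Abx, so that its direction in the water background is no independent evidence. In bulk tissue, fewer oligodendrocytes and less RNA per oligodendrocyte cannot be told apart.

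Mbp, the myelin basic protein, showed the larger difference in the water background. Its levels were 6940, 6380, 7990, 9270 and 10500 CPM in H2O and 5690, 5240, 2880 and 6080 CPM in Abx, without overlap. SCFA ran from 2910 over a median of 7320 to 11400 CPM and Abx_SCFA stood at 9660, 5330, 7140, 6710 and 6250 CPM, within the range of SCFA. The Mbp means were 8220 ± 1700 CPM in H2O (SD, n = 5), 4970 ± 1440 in Abx (n = 4), 7490 ± 2950 in SCFA (n = 6) and 7020 ± 1620 in Abx_SCFA (n = 5). The antibiotic term of Mbp was -0.37 ± 0.21, with -0.73 in the water and -0.09 in the fatty acid background. Mog, a surface glycoprotein of myelin, had a term of -0.36 ± 0.18.

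Members at an unadjusted p below 0.05 included Ermn, Aspa, Ugt8, Mal, Enpp2, Ndrg1 and Tspan2. Ugt8 makes the galactolipids of myelin, and its means were 220, 138, 187 and 153 CPM in H2O, Abx, SCFA and Abx_SCFA. Aspa, which cleaves N-acetylaspartate to acetate for myelin lipids, stood at 39.0, 25.7, 34.3 and 29.8 CPM. Enpp2, the secreted enzyme autotaxin, stood at 251, 155, 215 and 180 CPM. Mal, a proteolipid of myelin membranes, had medians of 592, 437, 624 and 469 CPM.

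The myelin score, the mean log2 CPM of the 23 genes, showed how far single libraries set these values. It ran from 8.049 to 8.526 in H2O and from 6.985 to 8.052 in Abx, and from 6.857 to 8.657 in SCFA and 7.656 to 8.38 in Abx_SCFA. The lowest library of all was SCFA replicate 5 (6.857), which also had the highest cortical score and the lowest Qk of its group. The next lowest was Abx replicate 3 (6.985), which had the lowest Qk of its group (69.9 CPM). Without SCFA replicate 5, all 23 members stood at an unadjusted p below 0.05 and the median was -0.48. Without Abx replicate 3, 3 did and the median was -0.30. Leaving out Abx_SCFA replicate 1 gave 21 members, SCFA replicate 6 gave 12 and H2O replicate 4, SCFA replicate 1, SCFA replicate 3 or Abx_SCFA replicate 5 gave 3 each. Without any 1 library all 23 stayed negative in the antibiotic term, and 18 (without SCFA replicate 1), 22 (without SCFA replicate 2, SCFA replicate 3 or Abx_SCFA replicate 2) or 23 (all other cases) were negative in both backgrounds. When the cortical score was added as a covariate, the median was -0.28 and 1 member stood at an unadjusted p below 0.05. With the myelin score as a covariate the Qk term was -0.22. Abx minus H2O in the myelin score was -0.29 in the rats whose numbers begin with 2 and -0.96 in those whose numbers begin with 3.

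**Figure D3:**
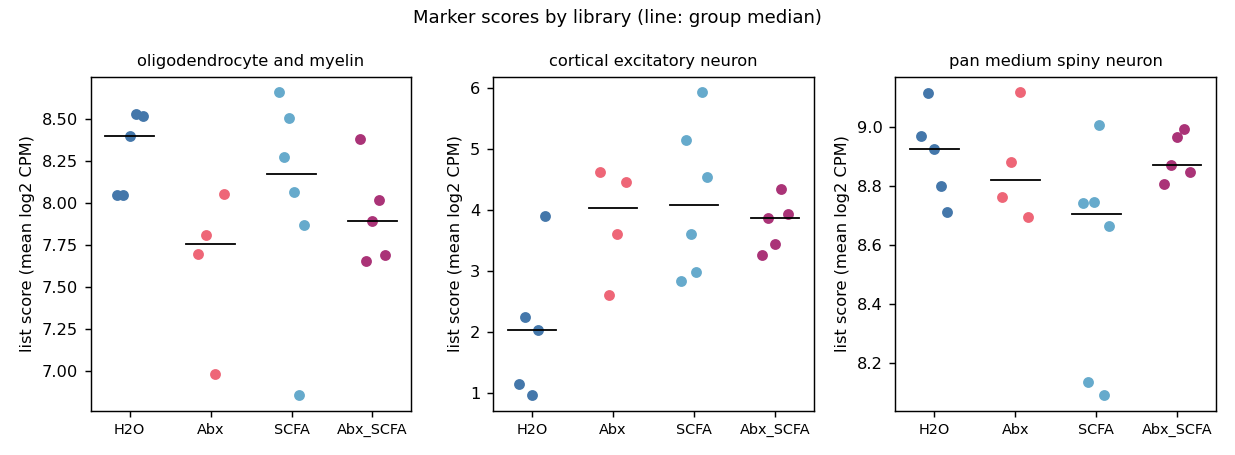
Marker scores (vertical axes, mean log2 CPM of the list) in each library of the 4 groups (horizontal axes); dots are libraries and lines group medians. The myelin score has its lowest dot at 6.857 in SCFA, the same library that has the highest cortical score, 5.928, and the lowest medium spiny neuron score, 8.089.

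Oligodendrocyte precursor genes were lower in less uniform size. All 11 members tested were negative (median -0.24), 10 of them in both backgrounds, where 3582 of 12846 genes were lower in both. At an unadjusted p below 0.05 in the lower direction (5.38% of all genes) stood 4 of 11: Olig2, Enpp6, Tns3 and Vcan. With the myelin score as a covariate 0 of 11 stood there and 4 of 11 were positive. Olig2, a transcription factor of the lineage, had means of 73.6, 48.8, 66.9 and 63.1 CPM in H2O, Abx, SCFA and Abx_SCFA. Enpp6, a marker of newly forming oligodendrocytes, stood at 12.4, 8.10, 11.3 and 8.06 CPM, and Vcan, a matrix proteoglycan of precursors, at 66.9, 57.6, 73.5 and 61.4 CPM. The defining precursor markers lay near 0 difference. Pdgfra, the growth factor receptor of precursors, had a term of -0.05 ± 0.056, and Cspg4, the NG2 proteoglycan, of -0.03 ± 0.063, which turned to 0.01 without SCFA replicate 1. Without 1 library, between 1 and 7 of the 11 members stood at an unadjusted p below 0.05, with 1 without H2O replicate 5 or Abx replicate 3 and 7 without SCFA replicate 5, SCFA replicate 6 or Abx_SCFA replicate 1. The 10 members lower in both backgrounds were 6 without SCFA replicate 1 and 8 without SCFA replicate 3.

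Astrocyte markers differed less as a list, with 13 of 16 negative and a median of -0.04. In the water background 15 of 16 were negative and in the fatty acid background 10 of 16. The same direction in both was seen in 9 of 16 (56.2%), against 48.9% of all genes in either direction. All 9 were lower in both, as were 3582 of 12846 genes. Gfap, the intermediate filament of astrocytes, and Aqp4, the water channel of their endfeet, were the 2 members lower at an unadjusted p below 0.05 (5.38% of all genes). Gfap stood at 569, 587, 568, 630 and 859 CPM in H2O and 520, 362, 520 and 530 CPM in Abx, without overlap. SCFA ran from 502 over 697 to 828 CPM and Abx_SCFA from 471 over 520 to 728 CPM, with overlap. The Gfap term was -0.33 ± 0.11 (edgeR adjusted p = 0.624), and the highest H2O and the lowest Abx library stood apart from their groups. Aqp4 means were 864 ± 73.3, 702 ± 74.6, 804 ± 114 and 746 ± 62.1 CPM in H2O, Abx, SCFA and Abx_SCFA, with a term of -0.19 ± 0.071. Microglial genes had 12 of 16 negative terms and a median of -0.06. Their median was -0.15 in the water and 0.02 in the fatty acid background. Only 6 of 16 members (37.5%) had the same direction in both, against 48.9% of all genes. Their defining marker Aif1 stood at 16.8 ± 2.37, 16 ± 3.73, 17.5 ± 1.63 and 18.2 ± 2.64 CPM.

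**Figure D4:**
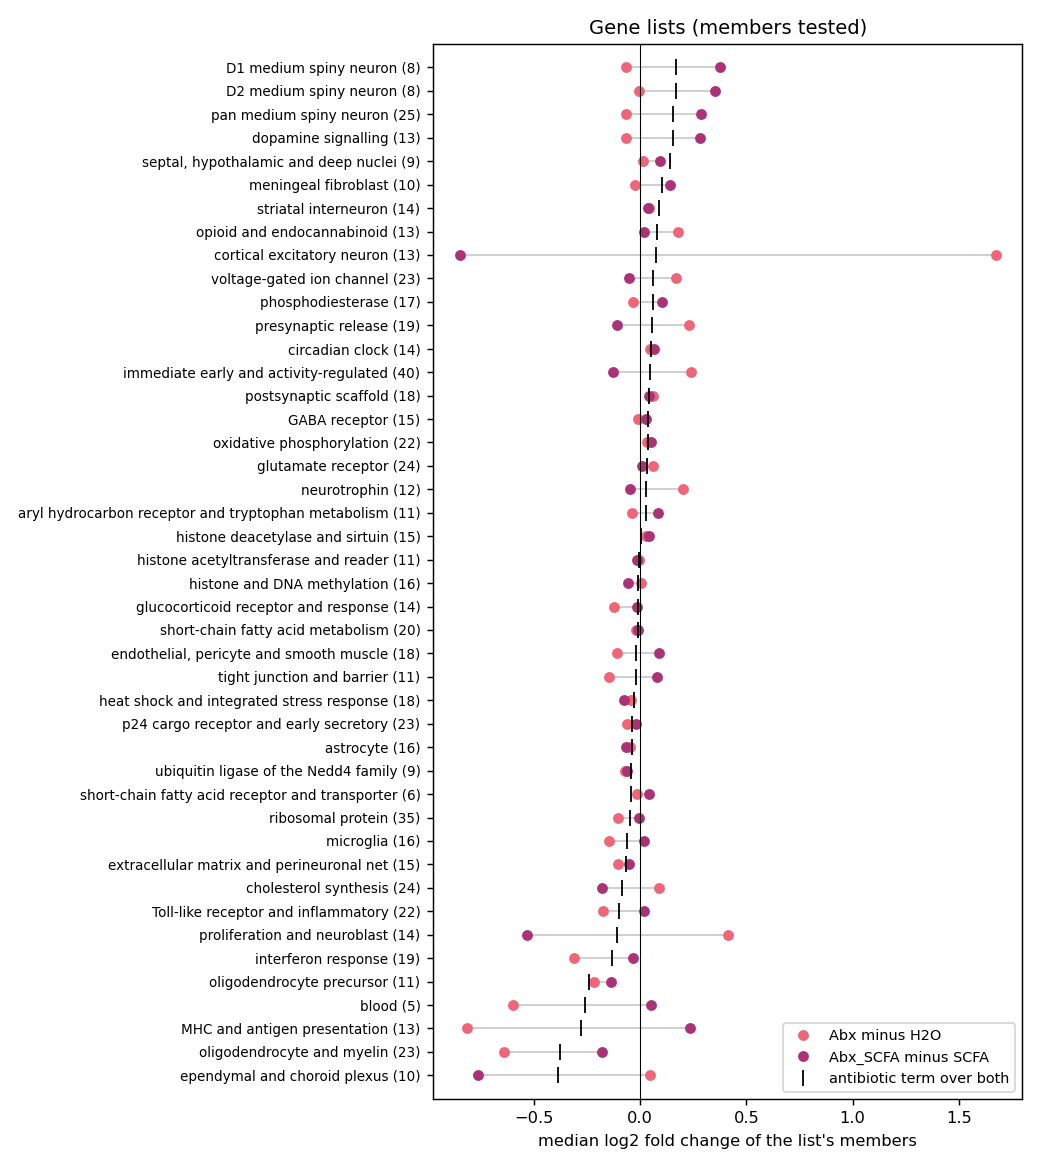
Median log2 fold change of each of 44 gene lists (rows, number of members tested in brackets) in the water background, in the fatty acid background and for the antibiotic term over both (horizontal axis). The oligodendrocyte list has negative medians in both, -0.64 and -0.18, while the cortical list has 1.67 and -0.85.

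Of the named genes with lower levels, Erap1 had the smallest p after Qk. Erap1, the endoplasmic reticulum aminopeptidase that trims peptides for class I MHC, stood at 32.4, 26, 33.5, 36.2 and 29.3 CPM in H2O and 24.0, 25.4, 21.4 and 28.8 CPM in Abx. SCFA ran from 24.0 over 29.7 to 32.6 CPM and Abx_SCFA from 21.3 over 25.0 to 26.8 CPM. Groups overlapped in both backgrounds, by 1 H2O and 1 Abx library in the first and by 1 SCFA library in the second. Its term was -0.30 ± 0.070, with -0.34 and -0.26 in the water and fatty acid backgrounds. Agps, which makes the ether bond of plasmalogens in peroxisomes, had means of 33.3, 28.7, 32.0 and 27.1 CPM in H2O, Abx, SCFA and Abx_SCFA and did not overlap in the fatty acid background. Nfatc3, a transcription factor that calcineurin activates, stood at 30.8, 25.2, 30.5 and 26.9 CPM and did not overlap in the water background. Ppp3cc, a catalytic subunit of calcineurin, was among the 36 genes, with 26.7, 24.4, 27.4 and 24.5 CPM. The order of these means follows from how the genes were chosen.

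Shroom2, an actin-binding protein, had a term of -0.18 ± 0.044, and Pak7, a brain-enriched p21-activated kinase that RefSeq lists as Pak5, one of -0.26 ± 0.067. Ptar1, a prenyltransferase subunit, had a term of -0.28 ± 0.072. Lrrn1, a neuronal leucine-rich repeat protein of the membrane, and Plcl1, a phospholipase C-like protein without catalytic activity, both had terms of -0.24 (SE 0.063 and 0.063). Lrrn1 did not overlap in the water background, where H2O ran from 75 to 86.4 CPM and Abx from 60.0 to 74.8 CPM. Dgcr2 had a term of -0.97 ± 0.24 but rested on 8 to 48 counts a library.

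Further genes of the 36, named after their values were seen, had similar sizes. Creb5, a transcription factor of the CREB and ATF family, had means of 11.5, 7.21, 10.7 and 7.57 CPM in H2O, Abx, SCFA and Abx_SCFA (-0.57 ± 0.16). Adam10, the alpha-secretase that sheds membrane proteins, had a term of -0.13 ± 0.036, Il1rap, the accessory chain of the interleukin-1 receptor, one of -0.28 ± 0.085, and Cdkn1b, the cell cycle inhibitor p27, one of -0.23 ± 0.071. Mcl1, an anti-apoptotic BCL2 relative, had -0.15 ± 0.044 and the transcription factor Sp1 -0.17 ± 0.045. Ppp2r3a, a regulatory subunit of protein phosphatase 2A, had -0.30 ± 0.079. All of them had an edgeR adjusted p of 0.624, and the sign of each held in the 36 alternative fits and library sets tried. That stability is no independent evidence, since the genes were chosen for the same direction in both backgrounds.

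Among genes with higher levels, Mrps18b, a protein of the small mitochondrial ribosomal subunit, had the smallest p. Its levels were 21.4, 21.7, 21.1, 21.8 and 21.2 CPM in H2O and 24.0, 27.3, 27.1 and 22.2 CPM in Abx, without overlap. SCFA ran from 20 over 21.2 to 24.1 CPM and Abx_SCFA from 22.1 over 23.4 to 26.5 CPM, where SCFA replicate 5 alone reached into the range of Abx_SCFA. The term was 0.19 ± 0.048. Ydjc, a homologue of bacterial carbohydrate deacetylases, stood at 27.5, 27.3, 30.8, 25.5 and 30.3 CPM in H2O and 30, 32.4, 34.3 and 33.0 CPM in Abx, with overlap of 1 Abx library. In the fatty acid background it did not overlap, with 25.3 to 31.4 CPM in SCFA and 31.6 to 36.1 CPM in Abx_SCFA. Its term was 0.19 ± 0.048. Slc35c2, a sugar nucleotide transporter of the secretory pathway, also did not overlap there (30.3 to 35.3 against 35.6 to 36.8 CPM), with a term of 0.14 ± 0.038.

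Vgf encodes a secreted precursor of neuropeptides that neurotrophins and neuronal activity induce. Its levels were 85.9, 121, 75.9, 95.6 and 104 CPM in H2O and 136, 102, 117 and 112 CPM in Abx. SCFA ran from 94.1 over 110 to 132 CPM and Abx_SCFA stood at 123, 122, 162, 138 and 133 CPM. Groups overlapped in both backgrounds, in the second through SCFA replicate 5. The term was 0.29 ± 0.079, with 0.28 in the water and 0.31 in the fatty acid background and 0.21 and 0.33 log2 CPM within the number series that begin with 2 and 3. It ranged from 0.26 to 0.33 without 1 library.

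The Vgf promoter is shown because Vgf had the smallest p among the 40 activity-regulated genes, many of which respond to CREB. The 150 bases before its start, from RefSeq, lie on the minus strand of GRCr8 chr12:25277021-25277170. Capitals mark the palindromic cyclic AMP response element TGACGTCA, which begins 90 bases before the start.
Vgf: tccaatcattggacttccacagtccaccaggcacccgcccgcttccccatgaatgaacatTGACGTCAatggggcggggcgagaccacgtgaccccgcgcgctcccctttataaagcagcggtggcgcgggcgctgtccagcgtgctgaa
The search for the same 8 letters in other genes covered a longer RefSeq promoter window, which also runs past the start. In this window they occur in 315 of the 9875 tested genes with a RefSeq promoter (3.19%). The 8 letters occur there in 4 of 179 (2.23%) genes that were higher at an unadjusted p below 0.05 and in 13 of 526 (2.47%) that were lower. The match is a description of the sequence.

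Vgf was the 1 higher member at an unadjusted p below 0.05 in the list of immediate early and activity-regulated genes, where 1.83% of all genes were higher. The list had 30 of 40 positive terms and a median of 0.05, from medians of 0.24 in the water and -0.13 in the fatty acid background, and 13 of 40 members had the same direction in both. Fos means were 25.3 ± 6.33, 35.8 ± 11.6, 35.6 ± 13.1 and 30.2 ± 2.23 CPM in H2O, Abx, SCFA and Abx_SCFA. Egr1 means were 109 ± 16.7, 143 ± 23.6, 125 ± 41.9 and 116 ± 13.8 CPM. In both genes Abx was above H2O and Abx_SCFA below SCFA, with overlap. The 3 lower members at that unadjusted p (5.38% of all genes) were Pim3, Maff and Sgk1. Sgk1, a kinase that glucocorticoids induce and that oligodendrocytes also express, had means of 214, 117, 183 and 148 CPM (-0.56 ± 0.25).

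Cend1, RragB and Dgcr2 had large terms, and their counts divided the libraries in a way unlike the treatment groups. Cend1, which promotes the exit of neuronal precursors from the cell cycle, had 4 to 14 counts in all 6 SCFA libraries, 7 in H2O replicate 4 and 8 in Abx_SCFA replicate 5, and 88 to 240 counts in the other libraries. Its means were 4.97, 7.34, 0.427 and 5.87 CPM in H2O, Abx, SCFA and Abx_SCFA, and its term was 2.05 ± 0.58. RragB, a Rag GTPase of amino acid sensing, had 4 to 23 counts in the same SCFA libraries, 6 in H2O replicate 4 and 19 in Abx_SCFA replicate 5, and 59 to 131 elsewhere (term 1.49 ± 0.42). Dgcr2 had the opposite order, with 28 to 48 counts in SCFA, 33 in H2O replicate 4 and 37 in Abx_SCFA replicate 5, and 8 to 21 elsewhere. Without those 2 libraries, chosen after these counts were seen, 547 genes stood at an unadjusted p below 0.05 in place of 926. The Qk term was -0.33 and the Vgf term 0.30 without them. Of the oligodendrocyte and myelin genes, 2 of 23 were then lower at that p, in place of 8. Among precursor genes it was 1 of 11, in place of 4. In that fit 383 of 12821 genes were lower at that p, and the smallest edgeR adjusted p was 0.972. The labels hold no division of libraries like that of Cend1, RragB and Dgcr2. Whether these libraries carry the right treatment label was not tested, and a wrong label would bear on every term given here.

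**Figure D5:**
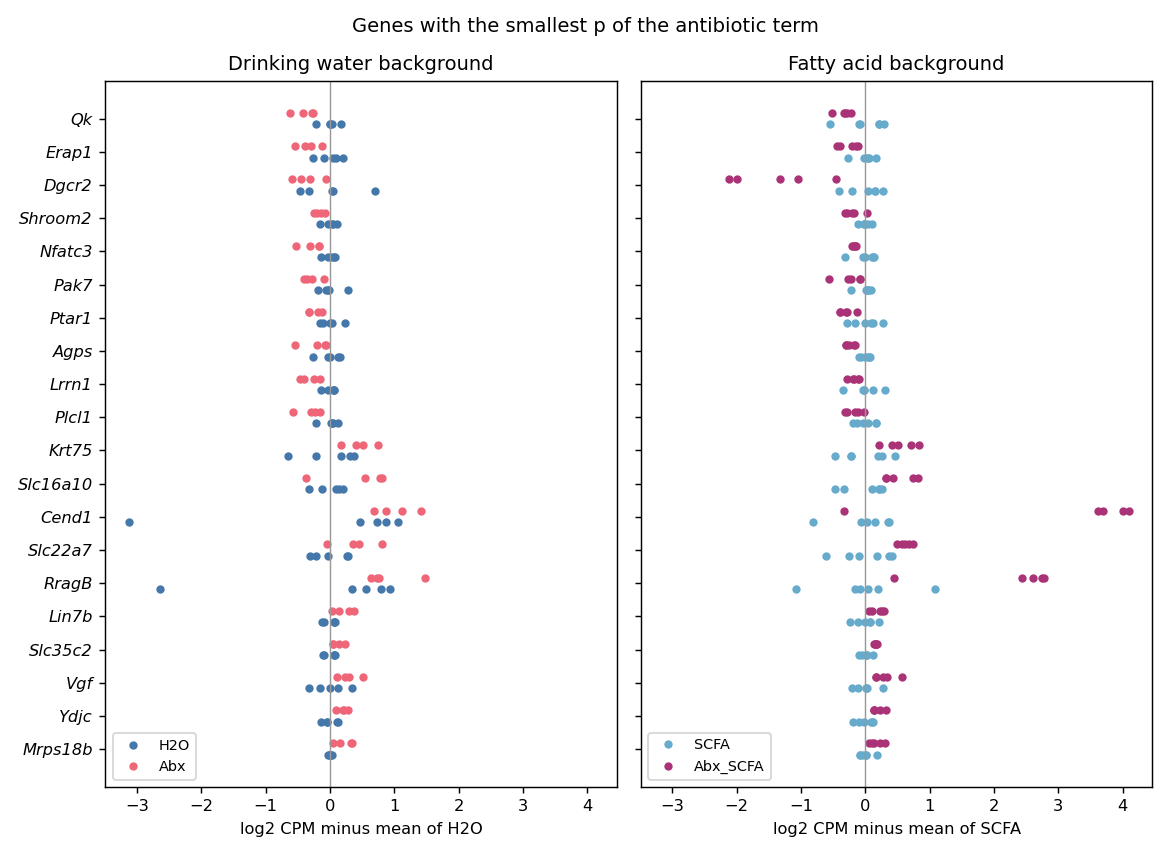
Log2 CPM of the 20 genes with the smallest p in both directions (rows) in each library, minus the mean of H2O (left) or SCFA (right); dots are libraries. For Cend1 and RragB, 1 H2O and 1 Abx_SCFA dot lie far from their groups, with 0.315 and 0.306 CPM for Cend1, while most other genes differ by less than 1 on this axis.

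The remaining higher genes were of low to middle level. Lin7b, a scaffold protein of synapses, had means of 73.2, 85.0, 73.1 and 83.0 CPM in H2O, Abx, SCFA and Abx_SCFA (0.20 ± 0.055). Slc16a10, an aromatic amino acid transporter of the monocarboxylate transporter family, had 1.88, 2.68, 1.54 and 2.24 CPM (0.53 ± 0.15), and Slc22a7, an organic anion transporter, 1.38, 1.85, 1.19 and 1.83 CPM (0.53 ± 0.15). Krt75, a keratin, had a term of 0.49 ± 0.14. Slc16a10 and Slc22a7 did not overlap in the fatty acid background and overlapped in the water background. They were chosen by small p, and no share of all genes is given to compare this separation with.

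Medium spiny neuron genes had positive terms that came from the fatty acid background. Of 25 genes shared by both classes of this neuron, 24 were positive (median 0.15), but only 8 had the same direction in both backgrounds. The median was -0.07 in the water and 0.29 in the fatty acid background. The 1 member at an unadjusted p below 0.05 was the retinoid receptor Rxrg, in the higher direction (1.83% of all genes). Drd2, the D2 dopamine receptor, stood at 210 ± 31, 214 ± 39, 171 ± 51.2 and 228 ± 14.3 CPM in H2O, Abx, SCFA and Abx_SCFA, and Drd1, the D1 receptor, ran from 321 to 511, 333 to 462, 171 to 411 and 342 to 437 CPM. Pdyn, the dynorphin precursor, stood at 440, 420, 343 and 444 CPM and Penk, the enkephalin precursor, at 1210, 1160, 934 and 1250 CPM. SCFA had the lowest mean of these genes, and its replicates 5 and 2 had the lowest medium spiny neuron scores of all libraries (8.089 and 8.133) and the highest cortical scores. Without both, 19 of 25 members were positive and the list median was 0.03. When the cortical score was added as a covariate, 20 of 25 members stood at an unadjusted p below 0.05, all of them higher, with a median of 0.28. In that fit 676 of 12846 genes were higher at that p. The D3 dopamine receptor gene Drd3 had a term of 0.35 ± 0.16, with means of 5.38, 6.67, 4.90 and 6.36 CPM.

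Several lists had opposite medians in the backgrounds, so that their antibiotic term is an average of unlike values. Cortical excitatory neuron genes had medians of 1.67 in the water and -0.85 in the fatty acid background, and 0 of 13 members shared a direction. Slc17a7, their vesicular glutamate transporter, had medians of 14.6, 320, 268 and 194 CPM in H2O, Abx, SCFA and Abx_SCFA. Bdnf, a growth factor that cortical neurons supply to the striatum, had medians of 0.36, 6.58, 8.41 and 5.39 CPM. Proliferation and neuroblast genes had medians of 0.41 and -0.53. MHC and antigen presentation genes had medians of -0.81 and 0.23, with 1 of 13 members in the same direction and 0 of 13 at an unadjusted p below 0.05. Cd74, the class II invariant chain, had means of 50.2 ± 34.3, 14.5 ± 6.96, 19.8 ± 11.9 and 23.3 ± 7.62 CPM. Without H2O replicate 1, which had the highest score of this list (4.457), the median was -0.09 and 8 of 13 members were negative, in place of -0.28 and 12 of 13. Ependymal genes had medians of 0.05 and -0.76, and blood genes of -0.60 and 0.05.

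The interaction, which tests whether the antibiotic effect differs between the backgrounds, called no gene (0% called; smallest adjusted p = 0.622, edgeR), and 1009 genes stood at an unadjusted p below 0.05. DESeq2 (smallest adjusted p = 0.324) and limma-voom (0.671) also called 0. A difference between the backgrounds cannot be told apart from one between the rat number series. Kdm6b, a demethylase of histone H3, had means of 53.9 ± 5.25, 68.6 ± 6.05, 69.3 ± 7.13 and 62.5 ± 8.04 CPM in H2O, Abx, SCFA and Abx_SCFA and an interaction p of 0.00123 before adjustment (edgeR adjusted p = 0.622). Fut8, the core fucosyltransferase, stood at 51.0, 42.5, 43.5 and 47.1 CPM.

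Lists of histone deacetylases and sirtuins, and of short-chain fatty acid receptors, transporters and metabolism genes, gave small differences. Of 15 histone deacetylase and sirtuin genes, 8 were positive and 7 negative (median 0.01). The 1 member at an unadjusted p below 0.05 was Sirt5, a mitochondrial desuccinylase, in the higher direction (1.83% of all genes). It had 132, 141, 133 and 140 CPM in H2O, Abx, SCFA and Abx_SCFA (0.08 ± 0.032). Hdac1 had means of 36.7 ± 4.04, 35.5 ± 1.76, 39.8 ± 5.63 and 35.3 ± 1.97 CPM, and those of Hdac2 were 121 ± 8.2, 118 ± 6.99, 116 ± 8.48 and 116 ± 7.61 CPM. Of 6 receptor and transporter genes tested, 3 were positive and none stood at an unadjusted p below 0.05. Slc16a1, the monocarboxylate transporter MCT1 of vessels and oligodendrocytes, had means of 80.5, 64.3, 73.1 and 75.1 CPM. Ffar2, a receptor of short-chain fatty acids, was near the floor, with 0.505, 0.455, 0.298 and 0.380 CPM. Among 20 fatty acid metabolism genes the median was -0.01, and Bdh1, which interconverts ketone bodies, had a term of 0.11 ± 0.039.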

How the data were processed

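The data were gene counts of polyA RNA from rat nucleus accumbens, extracted with an RNeasy kit and made into cDNA with a SMARTer kit, per the labels' protocols. The authors deposited 1 table of raw counts for 17296 gene symbols in 20 libraries, of which 1822 symbols were at 0 throughout. Reads were checked with FastQC 0.11.6 and aligned with STAR 2.4.0, limma was used, and the build was Rnor_6.0, per the submitters' processing notes. Not given in the sources used here are the counting tool, the annotation and the strand setting. Without strand, overlapping antisense genes cannot be told apart, and 4 pairs of symbols (such as Cers1 and Gdf1) had identical counts.

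Groups came from the labels. Genes were kept by filterByExpr (minimum count 10, minimum total 15), which left 12846, and scaled by TMM. The antibiotic term came from edgeR 4.0.16 (R 4.3.3; quasi-likelihood F test, robust, additive model with fatty acid as block, 17 residual degrees of freedom), with Benjamini-Hochberg adjustment and a threshold of 0.05. Background contrasts and the interaction came from a 4-group model. CPM use TMM library sizes, and log2 CPM a prior count of 2. The scripts were tested on simulated counts. No 2 libraries agreed within counting noise (lowest chi-square per degree of freedom 6.77). Alternatives were RLE and upper-quartile scaling, other filters, DESeq2 1.42.0, limma 3.58.1 (voom, with and without quality weights), other blocks, marker scores as covariates, single backgrounds and left-out libraries.

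Named genes were the 10 in each direction with the smallest p, a mean of at least 1 CPM and the same sign in both backgrounds, plus a fixed set (such as Drd1, Fos, Gfap and Mbp) and members of the lists. Symbols that start with LOC, RGD, AABR, Mir or AC were left out of the 10. The members and lists were chosen with earlier results of these data known. List members without a matching symbol were not analysed here. Some members of the lists are counted but not reported here by name.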

Additional observations from a re-analysis of the deposited data

Results flagged for a closer look

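In 140 sets of libraries, made of 35 genes in 4 groups, 9 had a highest or lowest library farther from the others than Dixon's 95% limit, and chance gives about 1 in 20. Of these, 6 were of Cend1 or RragB. H2O replicate 4 had 0.315 CPM of Cend1, where the other 4 had 4.85 to 7.35 CPM, and 0.27 CPM of RragB, where the others had 2.79 to 4.23 CPM. Abx_SCFA replicate 5 had 0.306 CPM of Cend1 against 6.08 to 8.56 CPM in the others and 0.727 CPM of RragB against 3.15 to 4 CPM. SCFA replicate 1 had 0.191 CPM of Cend1 against 0.384 to 0.554 CPM, close to the floor of 3 counts. Abx replicate 2 was the high library for RragB, with 6.2 CPM against 3.43 to 3.76 CPM.

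Gfap stood apart in 2 groups, in the direction of its difference between them. H2O replicate 5 had 859 CPM against 568 to 630 CPM in the others, and Abx replicate 2 had 362 CPM against 520 to 530 CPM. Pak7 was low in SCFA replicate 4, with 35.7 CPM against 41.9 to 44.4 CPM.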

How the results depend on the processing

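No gene was called in 34 of 36 alternatives. Limma-voom with quality weights called 1 gene, Qk, and leaving out 1 library gave 0 to 1 called genes, with Qk called without SCFA replicate 5. The count at an unadjusted p below 0.05 ran from 576 (without Abx replicate 3) to 1494 (without SCFA replicate 5) when 1 library was left out, and was 1827 with quality weights, 1616 and 593 when the cortical or the myelin score was added as a covariate, 1526 without SCFA replicates 2 and 5 and 547 without the 2 libraries low in Cend1, an alternative chosen after seeing the data. That last set called 1 gene in the interaction, Cend1, which follows from choosing the libraries by their Cend1 counts, and the leave-one-out range of that count was 0 to 0. The share of genes with the same direction in both backgrounds ran from 44.8% to 55.4% without 1 library, and was 47.9% with no filter, 58.4% with the cortical covariate and 57.2% without SCFA replicates 2 and 5. The causes were not tested. With the myelin covariate, which is made from the same genes, Mbp was 0.06, Mog 0.03, Pdgfra 0.02 and Cspg4 0.04. Cspg4 was 0.01 with the cortical covariate and ranged from -0.05 to 0.01 without 1 library, with 0.00 without SCFA replicate 3. No paired analysis was possible because replicate numbers follow accession order and the rat numbers differ between groups. Between 4 and 6 libraries a group and the spread of marker scores limit the precision, and 17525358 or more counts a library leave genes near 1 CPM with few counts.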

Other observations

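Gene lists not described above gave further small differences, none with a called member. Genes of p24 cargo receptors and the early secretory pathway had 20 negative terms among 23 members, 14 of them lower in both backgrounds, as were 3582 of 12846 genes. Their median was -0.04, and 5 members stood at an unadjusted p below 0.05 in the lower direction (5.38% of all genes). The 14 were 9 without SCFA replicate 2. The 5 were 3 with upper-quartile scaling and without any 1 of H2O replicate 2, Abx replicates 1, 3 and 4 and SCFA replicates 2, 3 and 6. They included Tmed5 (-0.24 ± 0.062) and Tmed10 (-0.13 ± 0.044), which sort cargo between endoplasmic reticulum and Golgi, and Sec24d (-0.19 ± 0.070), a coat subunit of transport vesicles. Cholesterol synthesis genes were negative in 21 of 24 members, but their median was 0.09 in the water and -0.18 in the fatty acid background. Among 9 ubiquitin ligases of the Nedd4 family, 6 had the same direction in both backgrounds. Itch (-0.19 ± 0.050), Smurf2 (-0.13 ± 0.043) and Wwp1 (-0.12 ± 0.051) were lower at an unadjusted p below 0.05 (5.38% of all genes). Nedd4l (0.14 ± 0.060) was higher at that p (1.83% of all genes).

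Oxidative phosphorylation genes had 21 positive terms among 22 members, 15 of them higher in both backgrounds, as were 2697 of 12846 genes. The median of the list was 0.04, and none stood at an unadjusted p below 0.05. Of 14 circadian clock genes 11 were positive, and 5 had the same direction in both backgrounds. Npas2 (0.15 ± 0.062) and Ciart (0.19 ± 0.064), both regulators of the clock, were higher at an unadjusted p below 0.05 (1.83% of all genes). Of 14 genes of the glucocorticoid receptor and its response, 7 were positive and 7 negative, with a median of -0.01. At an unadjusted p below 0.05 in the lower direction (5.38% of all genes) stood Pdk4, a pyruvate dehydrogenase kinase (-0.70 ± 0.29), Sgk1 (-0.56 ± 0.25) and the receptor Nr3c1 (-0.10 ± 0.038). In the higher direction (1.83% of all genes) stood Fkbp5, a chaperone of the receptor (0.13 ± 0.064).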
